A study of Mus musculus with 24 samples.

Results

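The promoters of neuronal ion channel and neurotransmitter receptor genes were examined in chromatin accessibility data from mouse germinal centre (GC) B cells. The genes were chosen by symbol alone. They were autosomal protein-coding genes in GENCODE M21. Their symbols began as those of potassium channels (Kcn), calcium channels (Cacna, Cacng) or sodium channels (Scn) do. Others began as those of ionotropic glutamate receptors (Grin, Gria, Grik), metabotropic glutamate receptors (Grm) or GABA-A receptors (Gabr) do. Their promoters were the peaks within 2.5 kb of any annotated transcription start site (TSS) of these genes. There were 136 such peaks of 65483 in all, at 83 of 167 genes.

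ATAC-seq measures open chromatin by letting a transposase insert sequencing adapters into accessible DNA. Splenic GC B cells were sorted 10 days after immunization with sheep red blood cells (SRBC) from 4 WT, 4 C, 4 K and 5 CK mice, described as 8 weeks old, female and on the C57BL/6J background, with 1 library per mouse. Every mouse, WT included, was Cg1Cre+/-, so that Cre is made from the Cγ1 immunoglobulin locus in activated B cells. The C mice also carried Crebbp fl/+, the K mice Kmt2d fl/+, and the CK mice both alleles, so that 1 copy of a histone acetyltransferase gene, of a histone methyltransferase gene, or of each could be deleted. The labels gave mice as replicates and did not give litters or sorting days. In a bulk library, a smaller share of cells with an open site and a less open site in each cell cannot be told apart.

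The libraries held 17483706 to 21857738 fragments in peaks. Values are given as counts relative to library size, on the usual CPM scale, after TMM scaling. All 6 B cell markers and all 6 GC B cell markers examined had a promoter peak, and none of these peaks was called in any mutant genotype against WT. Of the 6 neuron markers, Snap25, Syt1 and Stmn2 had no promoter peak, and the summed promoter level of the other 3 (Rbfox3, Tubb3 and Map2) ranged from 22.3 to 24.9 CPM per kb in WT and from 22.6 to 28.1 in CK. Of the 6 T cell markers, Cd3e, Cd3g, Cd4 and Cd8a had no promoter peak, while Cd3d (19.5 CPM per kb in WT) and Lck (17.6) did, with a sum of 35.9 to 38.8 in WT and 32.5 to 40.1 in CK. Although the mice were described as female, 9 libraries (2 WT, 2 C, 3 K and 2 CK) had 56.5 to 62.2 CPM at the starts of the Y-linked genes Kdm5d, Eif2s3y, Uty and Ddx3y, and the other 8 had at most 0.0566 CPM. Counts of calls that compare CK with WT are therefore also given within each of these sets of libraries.

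Voltage-gated channels open or close with the membrane potential, and ligand-gated receptors open when a transmitter binds. In neurons they carry and shape action potentials and synaptic currents, and many of their genes are held silent outside the nervous system, in part by the repressor REST, which binds a long DNA element called RE1. Lymphocytes use a small number of these channels. Kcna3 (Kv1.3) and Kcnn4 (KCa3.1) are potassium channels that keep the membrane potential negative, which favours calcium entry after antigen receptor signalling.

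The DNA of the promoters that changed most clearly in CK is shown first, because the gained and the lost promoters had different median base composition. Each line gives 200 bases of GRCm38 (mm10), read 5′ to 3′ on the strand of the gene, from the part of the peak outside annotated exons that lies nearest to the TSS. Capitals mark CpG dinucleotides. The first 2 were gained in CK and the last 3, from 2 genes, were lost.
Cacna1a, chr8:84415164-84415363, plus strand, intron of Cacna1a: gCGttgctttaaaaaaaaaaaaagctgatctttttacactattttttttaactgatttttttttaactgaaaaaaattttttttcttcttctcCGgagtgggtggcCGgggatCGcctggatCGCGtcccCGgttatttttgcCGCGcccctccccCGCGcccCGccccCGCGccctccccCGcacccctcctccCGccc
Grin2d, chr7:45865912-45866111, minus strand, intron of Grin2d: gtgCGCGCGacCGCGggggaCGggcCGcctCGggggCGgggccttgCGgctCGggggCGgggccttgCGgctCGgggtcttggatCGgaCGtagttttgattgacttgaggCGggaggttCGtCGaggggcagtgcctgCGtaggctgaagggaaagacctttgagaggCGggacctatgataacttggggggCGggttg
Grm6, chr11:50850485-50850684, plus strand, between genes: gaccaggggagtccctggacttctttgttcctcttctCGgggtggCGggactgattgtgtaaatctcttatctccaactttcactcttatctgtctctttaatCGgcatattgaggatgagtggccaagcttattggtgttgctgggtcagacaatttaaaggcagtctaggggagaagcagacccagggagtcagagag
Kcnn4, chr7:24382854-24383053, plus strand, intron of Kcnn4: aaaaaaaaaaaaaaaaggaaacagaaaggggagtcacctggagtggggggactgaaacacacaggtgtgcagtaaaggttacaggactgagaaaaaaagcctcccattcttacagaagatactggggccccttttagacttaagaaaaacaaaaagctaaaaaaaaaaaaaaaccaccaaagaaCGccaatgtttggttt
Kcnn4, chr7:24370063-24370262, plus strand, between genes: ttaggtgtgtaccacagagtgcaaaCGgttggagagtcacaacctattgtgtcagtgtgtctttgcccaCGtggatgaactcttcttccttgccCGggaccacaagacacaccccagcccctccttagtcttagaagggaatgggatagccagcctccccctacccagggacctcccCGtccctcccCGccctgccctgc
The 2 gained stretches held 16 and 22 CpG dinucleotides and the 3 lost stretches held 3, 1 and 5. Over whole peaks, the 18 member peaks gained in CK had a median G+C content of 63.9% and the 7 lost had 50.5%, against 58.0% for the other 111 members. The median ratio of observed to expected CpG was 0.743, 0.257 and 0.524 in the same order. The members as a whole had a median G+C content of 58.1%, above the 54.4% of promoter peaks of other autosomal protein-coding genes and the 48.2% of all peaks.

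The RE1 element is shown next because it is the known target of REST. The core of the element, 15 bases of which the 2 in the middle are free, was searched on both strands in every peak. It occurred in 5 member peaks (3.68%), in 51 of 19405 promoter peaks of other genes (0.263%) and in 95 of all peaks (0.145%). Among the 240 peaks inside member genes but over 2.5 kb from any protein-coding TSS, 1 held the core. Capitals mark the core, with 7 bases on each side, on the strand where it was found.
Cacna1b, chr2:24762085-24762099 (core), plus strand: acgccgtCAGCACCACGGACAGctgcctg
Grin1, chr2:25319018-25319032 (core), minus strand: tacgcttCAGCACCTCGGACAGcacccgc
Kcnab2, chr4:152424543-152424557 (core), minus strand: ctggattCAGCACCCAGGACAGctcctga
Kcnh4, chr11:100759011-100759025 (core), minus strand: cgaagttCAGCACCCTGGACAGccgcaca
Kcnk12, chr17:87798586-87798600 (core), plus strand: ccggcgtCAGCACCGCGGACAGcgcatcg
The match in Cacna1b lies in an intron 955 bp downstream of the TSS, that in Kcnh4 in an intron 722 bp downstream, and that in Kcnab2 in an intron 1295 bp downstream of an internal TSS. The match in Grin1, which encodes the obligatory NMDA receptor subunit, lies 70 bp downstream of the TSS in the 5′ UTR. The match in Kcnk12 lies 599 bp upstream of the TSS and outside genes. A match describes the sequence, and binding of REST was not measured. The CRE letters TGACGTCA, a motif bound by CREB proteins, were in 2 member peaks (1.47%) and in 3.87% of promoter peaks of other genes. The ETS letters CCGGAAGT were in 4 (2.94%) and in 8.22%, and the binding motif of NRF1 in 2 (1.47%) and in 1.86%. These searches also covered both strands.

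A promoter peak was less often present at these genes than at genes in general. Of the 167 genes, 83 (49.7%) had one, against 14095 of 20807 autosomal protein-coding genes (67.7%). All 9 genes for calcium channel alpha1 subunits, which form the pore, had a peak. Peaks were also found at 3 of 4 sodium channel beta subunit genes and 5 of 10 sodium channel alpha subunit genes, and at 19 of 39 voltage-gated potassium channel (Kv) genes. Only 3 of 16 GABA-A receptor genes had a peak (Gabrd and Gabrp among them), and among AMPA and kainate receptor genes only Grik4 did. The table holds called peaks, so the 84 other genes have no value here. Of the 83 genes, 48 had 1 promoter peak and 35 had 2 or more, with 6 at most. A TSS lay inside 81 of the 136 peaks, 50 covered the 5′ end of the gene, 66 lay wholly inside the gene body at an internal TSS or within reach of one, and 108 overlapped an exon. For 28 peaks, the only TSSs in reach were those of transcripts not annotated as protein-coding.

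**Figure D1:**
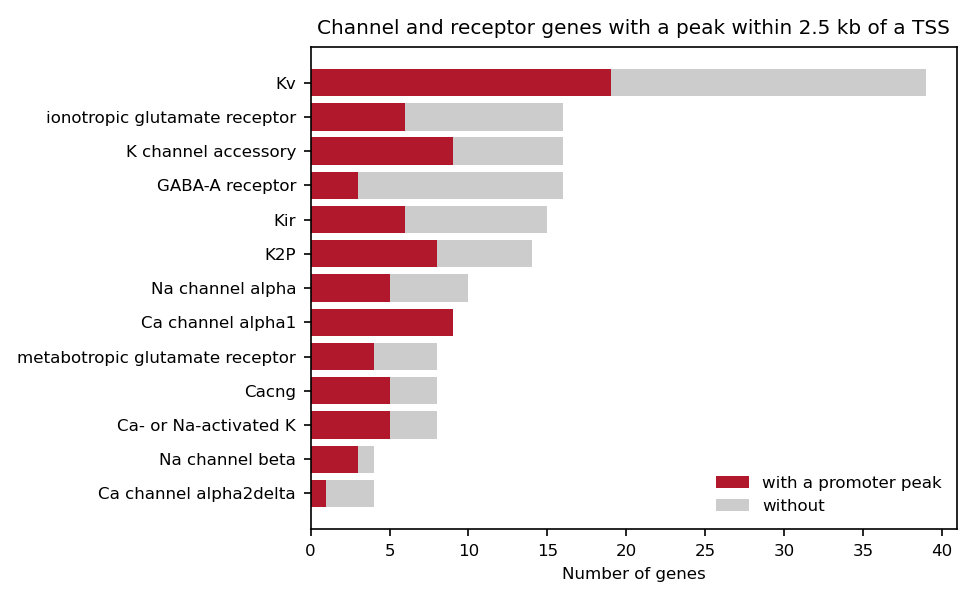
Number of channel and receptor genes of each role with a peak within 2.5 kb of a TSS (red) and without (grey), on a linear axis. All 9 calcium channel alpha1 genes had a peak and 13 of 16 GABA-A receptor genes had none.

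In WT, the members were less accessible than other promoters. Their median was 6.45 CPM per kb of peak, against 14.6 for promoter peaks of other genes and 4.83 for all peaks. Levels are compared between genes only on this scale. Of the members, 57 (41.9%) lay under 5 CPM per kb, as did 29.7% of the other promoter peaks. Among the most accessible members were promoters of the cytosolic potassium channel beta subunits Kcnab2 (47.8 ± 2.09 CPM per kb, SD, n = 4) and Kcnab3 (47.2 ± 2.28 for the peak upstream of the gene and 40.6 ± 2.33 for the peak over its start). Both of these genes share the neighbourhood with another gene, since the Kcnab2 peak also covers a TSS of Nphp4 and the upstream Kcnab3 peak a TSS of Cntrob. An internal peak of Cacna1s reached 46.8 ± 1.05 CPM per kb, and another 37.7 ± 1.97. The promoter of Kcnq5, an M-current channel, reached 41.4 ± 2.18. Within this order, the 4 WT values of neighbours overlapped except those of Cacna1s (46.8) with Kcnq5.

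By role, the median WT level was highest for calcium- or sodium-activated potassium channels (12.04 CPM per kb over 10 peaks), inward rectifiers (10.9 over 8) and Kv channels (10.5 over 27). It was lowest for sodium channel beta subunits (1.58 over 4), Cacng subunits (1.67 over 7) and GABA-A receptors (1.81 over 3). The ranges of the roles overlapped, from 0.567 to 46.8 CPM per kb among alpha1 subunits alone.

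**Figure D2:**
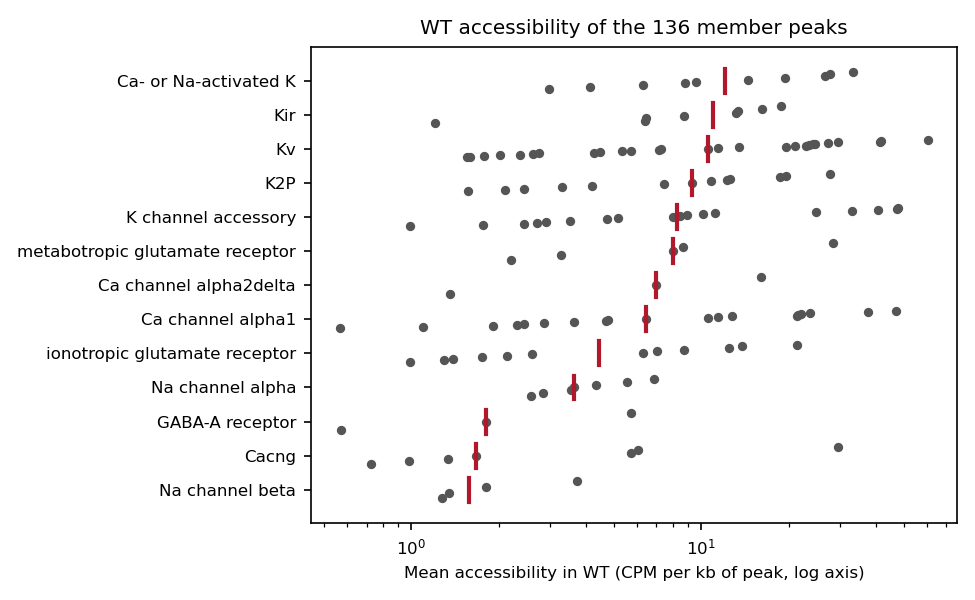
Mean accessibility of each of the 136 member peaks in WT, in CPM per kb of peak on a log axis, by role. Points are peaks and red bars are medians, from 1.58 CPM per kb for sodium channel beta subunits to 12.04 for calcium- or sodium-activated potassium channels.

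The channels known from lymphocytes were examined by name. Kcna3 had 1 peak over its start (chr3:107035687-107039540). Its WT mice measured 86.9, 93.7, 88.2 and 92.5 CPM and its CK mice 95.7, 88.0, 84.6, 100.5 and 96.2. The C mice averaged 88.4 ± 5.04 CPM (SD, n = 4) and the K mice 98.4 ± 4.43 (SD, n = 4). The groups overlapped except that 3 of 4 K mice lay above every WT mouse, and no contrast passed the test (log2 fold change in CK 0.04, SE 0.050, edgeR adjusted p = 0.635).

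Kcnn4 had 4 peaks and 2 of them fell in CK. The peak over its start (chr7:24368215-24370510) measured 63.1, 63.1, 60.8 and 68.8 CPM in WT and 53.8, 55.4, 55.3, 51.2 and 57.0 in CK. Every CK mouse lay below every WT mouse, and the log2 fold change was -0.23 (SE 0.046, edgeR adjusted p = 0.00153, or 0.0123 without WT mouse 4). Its mean was 59.8 ± 2.12 CPM in C and 55.5 ± 2.41 in K, with log2 fold changes of -0.10 and -0.20 (edgeR adjusted p = 0.582 and 0.0157).
The second lost peak lies inside the gene (chr7:24382818-24383566), over an exon and the TSS of a transcript not annotated as protein-coding. It measured 18.3, 19.1, 20.1 and 22.4 CPM in WT and 13.5, 12.7, 12.1, 14.3 and 17.1 in CK, again without overlap, with a log2 fold change of -0.52 (SE 0.096, edgeR adjusted p = 0.000685). The other 2 Kcnn4 peaks had log2 fold changes of -0.16 and -0.07 and were not called (edgeR adjusted p = 0.188 and 0.724).

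The first contrast asked what the loss of 1 copy of Crebbp changed. No member peak was called in C against WT by edgeR's quasi-likelihood test, where 0.0596% of all peaks were gained and 0.101% lost, and 0.0358% and 0.0972% of promoter peaks. By DESeq2 none was called either, and at an unadjusted p under 0.05 there were 17 (10 higher and 7 lower). The median log2 fold change of the members was 0.02, against -0.01 over other promoter peaks. In both directions alike, 3 members had every C mouse on one side of every WT mouse, as had 3.04% of promoter peaks above and 3.10% below.

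Loss of 1 copy of Kmt2d was tested in K against WT. There, 1 member peak was gained and 3 were lost, against 0.647% and 0.828% of all peaks and 1.38% and 0.471% of all promoter peaks. The members' median log2 fold change was 0.13, against 0.05 over promoter peaks of other genes. At 18 members every K mouse lay above every WT mouse and at 7 below, where the shares were 9.44% and 3.19% of promoter peaks.
The 3 lost peaks belonged to Grm6, Kcnj1 and Scn11a, and all of these were also lost in CK. The Grm6 promoter, of a metabotropic glutamate receptor known from retinal bipolar cells, measured 80.6, 72.7, 80.6 and 84.9 CPM in K (log2 fold change -0.28, SE 0.051, edgeR adjusted p = 0.00276). The Kcnj1 peak measured 26.6, 28.9, 30.1 and 31.7 CPM in K (log2 fold change -0.34, SE 0.073, edgeR adjusted p = 0.00759). The Scn11a peak measured 5.94, 6.12, 6.33 and 5.63 CPM in K (log2 fold change -0.48, SE 0.10, edgeR adjusted p = 0.00841). These K counts rested on single mice. Without K mouse 1 or WT mouse 4 none was gained and none lost, and without WT mouse 3 none was gained and 1 lost. Without WT mouse 1 or K mouse 2 or 3, 1 was lost, and the gained count was 2 or 3 without C mouse 3, CK mouse 5 or K mouse 3.

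Loss of a copy of both genes changed the most members. In CK against WT, 18 of 136 member peaks (13.2%) were gained and 7 (5.15%) were lost. The same test called 3.54% of all peaks gained and 3.30% lost, and 7.29% of all promoter peaks gained and 1.93% lost. The members' median log2 fold change was 0.12, against 0.04 over promoter peaks of other genes and 0.00 over all peaks. Above 0 lay 101 members (74.3%), against 62.3% of all promoter peaks and 50.6% of all peaks. Every CK mouse lay above every WT mouse at 21 members (11.6% of promoter peaks did so) and below at 6 (3.85%). The gained peaks lay at 17 genes and the lost peaks at 6. Of the 25 changes, 8 exceeded 1.5-fold, 7 of them gains.

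Base composition moved with this result. With the values of each library also centred within 20 bins of G+C content, 8 members were gained and 10 lost. The share of gains among the calls thus went from 72.0% to 44.4% (79.1% to 47.7% over promoter peaks of other genes). The background of that fit was 4.05% of promoter peaks gained and 4.44% lost. All 8 of these gains and 7 of these losses were also called without the bins. The 8 gains included Cacna1a, Grin2d, Gabrp, Cacna2d2, Kcnt2, Kcnmb4 and Cacna1c, named after their values were seen, and the 3 additional losses included the promoter of Kcnab2. The difference in log2 scale between peaks of high and low G+C content ranged from -0.29 to -0.04 in WT libraries and from 0.06 to 0.28 in CK libraries, without overlap.
Split by G+C content, 1 of 19 members under 50% was gained, 2 of 28 from 50 to 55%, 4 of 36 from 55 to 60%, 6 of 27 from 60 to 65% and 5 of 26 at 65% or more. The shares in the 2 highest classes were 22.2% and 19.2%, and over promoter peaks of other genes they were 14.6% and 28.2%. The median log2 fold change at 65% or more was 0.31 for members and 0.29 for other promoter peaks. All 7 lost members lay under 55%. The part of base composition in the gains and losses was not tested.

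**Figure D3:**
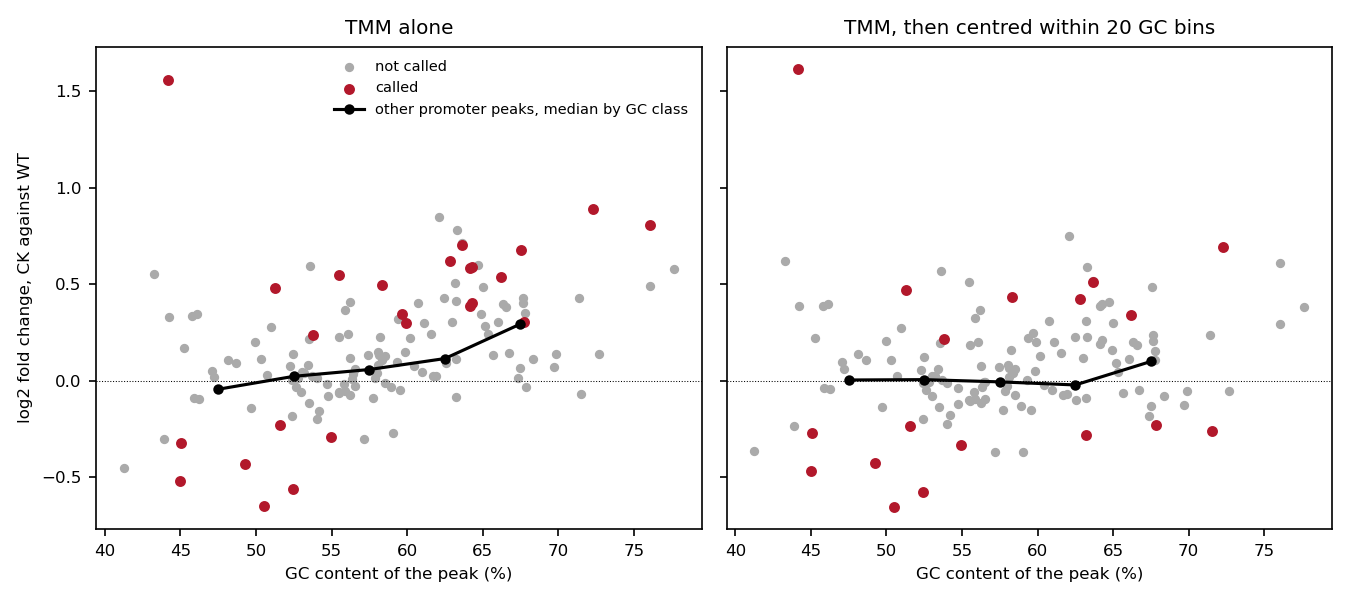
Log2 fold change of CK against WT (y axis) by G+C content of the peak (x axis, percent) for the 136 member peaks, called (red) or not (grey), with TMM alone (left) and with centring in 20 G+C bins (right). Black points are medians of promoter peaks of other genes in 5 classes. The black line rises from -0.05 to 0.29 on the left and lies between -0.02 and 0.10 on the right.

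The libraries also differed in the signal on the Y chromosome. Within the libraries with fragments at Y gene starts (2 WT and 2 CK), no member was gained and 1 lost, and within those without (2 WT and 3 CK), 7 were gained and none lost. Of the named peaks, Cacna1a, Cacna2d2, Gabrp, Grin2d and Kcng3 were called only in the libraries without these fragments, and Grm6 only in those with them. Kcnj1, Kcnj4, the start of Kcnk3, Grik4, Grm2, Scn11a and the 2 lost Kcnn4 peaks were called in neither set. The direction of all 18 gained and all 7 lost members was kept within both sets. These peaks were called on the same libraries, and at 16 of the gained and 5 of the lost no CK mouse overlapped WT. For those peaks, the direction within a set was fixed in advance. With the presence of Y gene start fragments as a factor, 21 were gained and 7 lost (8.86% and 2.35% of promoter peaks). With the total signal over all Y peaks as a covariate, which ranged from 249 to 573 CPM in WT and from 429 to 718 in CK, none was gained and 2 were lost, and the calls over all peaks went to 367 gained and 338 lost. This total did not follow the Y gene start fragments: CK mouse 2, without them, had 718 CPM and WT mouse 1, with them, had 283. Its median was 279 CPM in WT and 545 in CK, so its effect and that of genotype cannot be fully told apart. Without WT mouse 4, 9 members were gained and 3 lost, and without WT mouse 3, 10 and 4. Without CK mouse 1, 11 were gained and 5 lost. By DESeq2, 22 were gained and 8 lost.

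Among the gained promoters, voltage-gated calcium channels had 5 of 19 alpha1 peaks gained and none lost, and 1 of 3 alpha2delta peaks gained. The peak with the lowest p lies at an internal TSS of Cacna1a, the pore of P/Q-type channels, 25645 bp from the 5′ end of the gene (chr8:84414085-84415781), and overlaps an exon and UTR. It measured 4.63, 4.44, 3.37 and 3.27 CPM in WT, 4.77, 4.74, 3.44 and 4.30 in C. The K mice measured 6.37, 5.15, 4.92 and 4.94 CPM, against 6.99, 6.14, 5.96, 6.33 and 6.57 in CK. All CK mice and all K mice lay above all WT and C mice, and the K mice overlapped CK. The log2 fold change in CK was 0.70 (SE 0.13, edgeR adjusted p = 0.000611).
Cacna2d2 encodes an alpha2delta subunit, which carries channels to the membrane. Its gained peak (chr9:107526291-107527215) covers an exon far inside the gene, at the TSS of a transcript not annotated as protein-coding. It measured 15.96, 16.03, 13.45 and 13.95 CPM in WT and 26.1, 21.3, 20.1, 19.4 and 27.1 in CK, a log2 fold change of 0.62 (SE 0.12, edgeR adjusted p = 0.00132). Its mean was 20.2 ± 2.90 CPM in C and 21.7 ± 4.50 in K, with log2 fold changes of 0.44 and 0.55 that were not called (edgeR adjusted p = 0.179 and 0.0132).
The other gained calcium channel peaks belonged to Cacna1b (N-type), Cacna1c and Cacna1d (L-type) and Cacna1e (R-type), with log2 fold changes from 0.30 to 0.55 (edgeR adjusted p = 0.00215 to 0.00999). Those of Cacna1c, Cacna1d and Cacna1e lie inside the gene and not over its 5′ end. The Cacna1b peak covers the start of the gene and holds the RE1 core shown above. It measured 21.3, 21.3, 21.5 and 25.3 CPM in WT and 27.9, 25.8, 26.4, 28.5 and 29.2 in CK, without overlap. In the fit with G+C bins its log2 fold change was 0.10 (edgeR adjusted p = 0.334).

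Sodium channel promoters went both ways. Of 7 alpha subunit peaks, 1 was gained and 1 lost in CK. The Scn11a peak, of a sodium channel of pain-sensing neurons, lies 970 bp inside the gene over an internal TSS (chr9:119823265-119824486). It measured 8.14, 9.09, 8.90 and 7.31 CPM in WT, 9.49, 9.34, 8.95 and 10.6 in C, and 6.70, 6.46, 6.06, 6.47 and 5.30 in CK. The CK and K mice lay below all WT and C mice. Its log2 fold change was -0.43 in CK (SE 0.098, edgeR adjusted p = 0.0041) and 0.19 in C (edgeR adjusted p = 0.593). Without WT mouse 2 or 3 or CK mouse 5 the CK call was lost (edgeR adjusted p = 0.0106 to 0.0191). No sodium channel beta subunit peak was called.

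Potassium channels and their accessory subunits supplied 8 gained peaks and 4 of the 7 lost. Of the 27 Kv peaks, 3 were gained (Kcng3, Kcnh2 and Kcnh4) and none was lost. With G+C bins, none of these 3 was called, 2 Kv peaks were lost, and the median log2 fold change went from 0.13 to 0.03. Of the 27, 23 lay above 0 in K and 20 in CK, as did 64.9% and 62.3% of all promoter peaks. Kcng3 is a silent subunit that modifies Kv2 channels. The peak over its start measured 17.7, 18.96, 15.8 and 14.3 CPM in WT and 23.9, 23.6, 20.8, 20.6 and 21.2 in CK, a log2 fold change of 0.40 (SE 0.080, edgeR adjusted p = 0.00149). All CK mice lay above all WT mice. With G+C bins its log2 fold change was 0.21 (edgeR adjusted p = 0.0552), and without WT mouse 4 the edgeR adjusted p was 0.0109. Kcnh4 holds the other gained RE1 core. Its start measured 33.0, 29.0, 25.7 and 26.0 CPM in WT and 37.1, 36.2, 32.0, 34.3 and 35.03 in CK, where 1 CK mouse lay below 1 WT mouse (log2 fold change 0.30, SE 0.074, edgeR adjusted p = 0.00802). A peak 2488 bp upstream of Kcnc1, a Kv3 channel gene, was not called (log2 fold change -0.20, SE 0.064, edgeR adjusted p = 0.035).
Of 13 peaks of K2P channels, which carry leak currents, 2 were gained, both at Kcnk3, and 1 was lost, at Kcnk6. The peak over the start of Kcnk3, with a G+C content of 76.0%, measured 1.86, 1.51, 1.69 and 0.775 CPM in WT, 1.23, 1.26, 0.960 and 0.903 in C, and 2.56, 1.94, 2.32, 3.29 and 2.77 in CK. The log2 fold change against WT was 0.81 (SE 0.20, edgeR adjusted p = 0.00857). This call held under 16 of 32 alternatives. With G+C bins the log2 fold change was 0.61 (edgeR adjusted p = 0.0338), and without WT mouse 2, 3 or 4, C mouse 1 or 2, K mouse 3 or CK mouse 1, 3, 4 or 5 the edgeR adjusted p was 0.0101 to 0.0475. The internal Kcnk6 peak had a WT mean of 4.29 ± 0.802 CPM (SD, n = 4) and a CK mean of 2.71 ± 0.597 (SD, n = 5), a log2 fold change of -0.65 (SE 0.17, edgeR adjusted p = 0.00881).
Of 8 inward rectifier peaks, Kcnj4 was gained and Kcnj1 (ROMK, a channel of the kidney tubule) was lost. The start of Kcnj4 measured 2.66, 2.14, 1.78 and 2.33 CPM in WT and 3.40, 3.28, 3.93, 3.59 and 3.51 in CK, a log2 fold change of 0.68 (SE 0.15, edgeR adjusted p = 0.0028), with no overlap. It was not called with G+C bins (edgeR adjusted p = 0.0301) or without WT mouse 3 (edgeR adjusted p = 0.018). The Kcnj1 peak lies at an internal TSS (chr9:32392740-32395565) and measured 39.9, 33.6, 37.3 and 38.1 CPM in WT and 32.1, 29.9, 29.4, 28.2 and 28.9 in CK. The CK mice lay below the WT mice, with a log2 fold change of -0.33 (SE 0.069, edgeR adjusted p = 0.00239), and without WT mouse 1 or 4 the edgeR adjusted p was 0.0105 and 0.0108. The remaining gains were Kcnt2, a sodium-activated channel, and Kcnmb4, the neuronal beta subunit of BK channels, with log2 fold changes of 0.48 and 0.24 (edgeR adjusted p = 0.00237 and 0.00242).

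**Figure D4:**
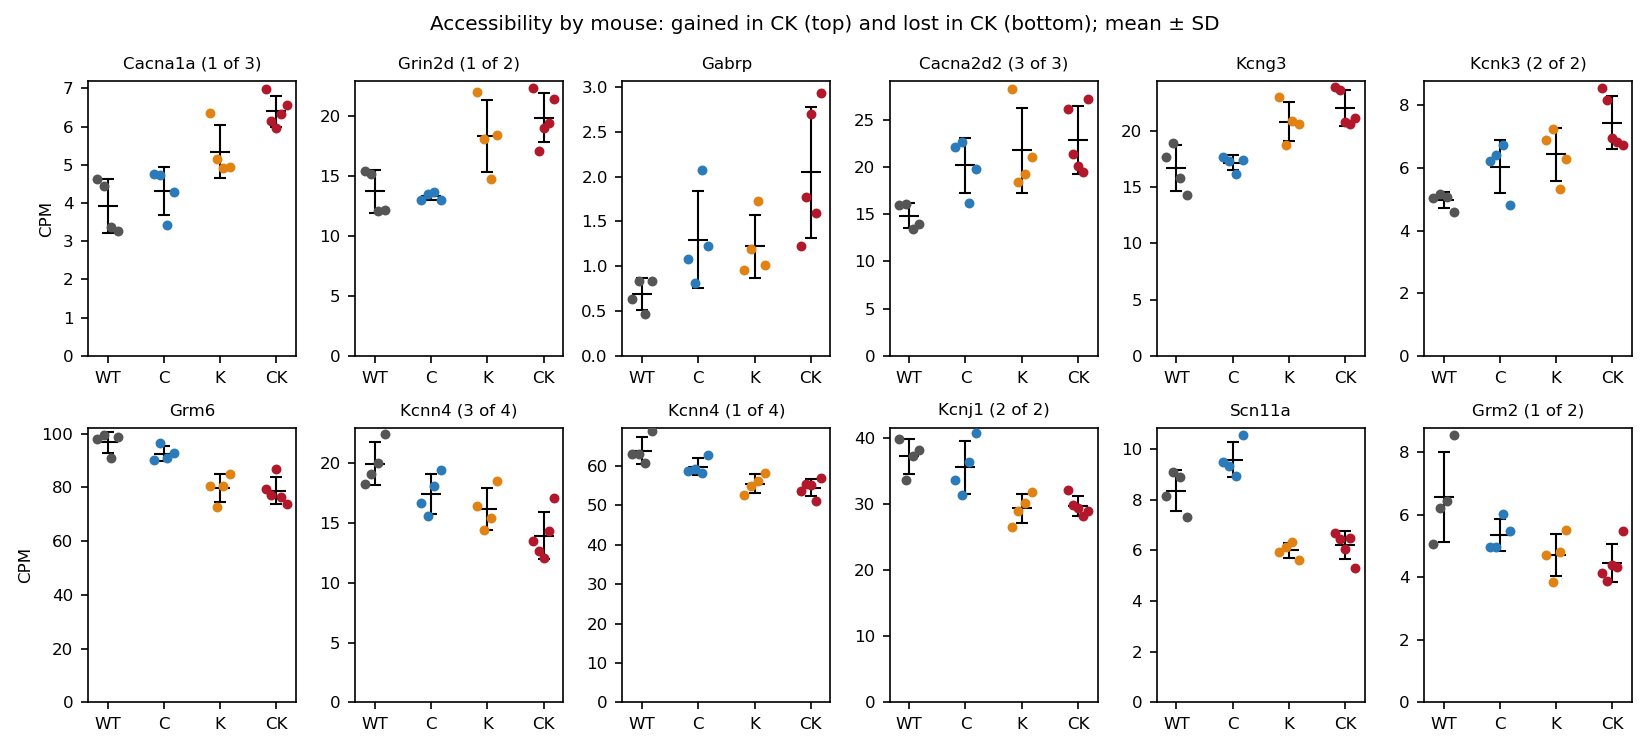
Accessibility in CPM (linear y axes from 0) in each mouse, by genotype, for 6 gained (top) and 6 lost (bottom) member peaks of low p in CK. Points are mice and bars are the mean ± SD. At Cacna1a the CK mice lie from 5.96 to 6.99 CPM and the WT mice from 3.27 to 4.63.

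By symbol alone, 12 peaks were counted as ionotropic receptors, 1 of them at Grina. Of these 12, 2 were gained (Grin2d and Grik4), none was lost, and 11 lay above 0 in CK, as did 62.3% of all promoter peaks. The Grin2d peak, of an NMDA receptor subunit, lies 461 bp from an internal TSS (chr7:45865569-45866668). It measured 15.4, 15.1, 12.1 and 12.2 CPM in WT, 13.03, 13.49, 13.7 and 13.01 in C. The K mice measured 22.02, 18.1, 14.7 and 18.5 CPM, against 22.4, 17.1, 19.03, 19.4 and 21.4 in CK. The CK mice lay above every WT and C mouse, with a log2 fold change of 0.54 against WT (SE 0.10, edgeR adjusted p = 0.000917). The start of Grik4, a kainate receptor subunit, had a WT mean of 13.01 ± 1.95 CPM (SD, n = 4) and a CK mean of 17.01 ± 1.48 (SD, n = 5), a log2 fold change of 0.39 (SE 0.093, edgeR adjusted p = 0.00624). It was not called with G+C bins (edgeR adjusted p = 0.127) or without WT mouse 1, 3 or 4 or CK mouse 1, 3 or 4 (edgeR adjusted p = 0.015 to 0.0389). The start of Grin1, with the RE1 core, was not called (log2 fold change 0.40, SE 0.13, edgeR adjusted p = 0.0293), nor were the Kcnab2 and Kcnk12 peaks with the core (edgeR adjusted p = 0.575 and 0.633).
Of 5 metabotropic receptor peaks, none was gained and 2 were lost, Grm6 and Grm2, while the other 3 lay above 0 and the median log2 fold change was 0.15 (0.26 for the ionotropic peaks). The difference between the classes was not tested. The Grm6 promoter (chr11:50848251-50851649) had the lowest p of all members. It measured 98.0, 99.4, 91.0 and 98.8 CPM in WT, 90.2, 96.4, 91.1 and 92.8 in C, and 79.4, 77.3, 86.9, 76.5 and 73.7 in CK. The K and CK mice lay below all WT and C mice, and the log2 fold change in CK was -0.30 (SE 0.049, edgeR adjusted p = 0.000238). The Grm2 peak lies inside the gene and measured 5.05, 6.21, 6.42 and 8.53 CPM in WT and 4.14, 3.88, 4.40, 4.33 and 5.47 in CK. These overlapped in 1 mouse, and the log2 fold change was -0.56 (SE 0.14, edgeR adjusted p = 0.00663). Without WT mouse 2, 3 or 4 or CK mouse 1, 2, 3 or 4 it was not called (edgeR adjusted p = 0.0119 to 0.0542).

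Among GABA-A receptors, Gabrp (the pi subunit) had the largest fold change of the called members. Its only peak lies in an intron 2396 bp from the nearest TSS (chr11:33575348-33576561), close to the 2.5 kb limit. It measured 0.639, 0.836, 0.469 and 0.831 CPM in WT, 1.09, 0.812, 2.07 and 1.22 in C. The K mice measured 0.955, 1.19, 1.73 and 1.02 CPM, against 1.23, 1.78, 2.70, 1.59 and 2.94 in CK. The CK mice lay above the WT mice at this low level and overlapped C and K. The log2 fold change in CK was 1.56 (SE 0.30, edgeR adjusted p = 0.00098). The 5 Mb around this peak held 16 peaks called in C, while the windows around the other members called in CK held at most 1, and the 84 other peaks within 1 Mb had a median log2 fold change of -0.07 in CK. Just beyond the 2.5 kb limit, peaks 2564 bp from Grm2, 2574 bp from Scn8a and 2580 bp from Cacna1e differed by -0.09, 0.04 and 0.09 (log2) between CK and WT, and the 2 other peaks nearest inside it, at Kcnc1 (2488 bp) and Grin2c (2405 bp), had -0.20 and 0.41. No Cacng peak was called. That with the lowest p, at Cacng5, had a WT mean of 0.291 ± 0.134 CPM (SD, n = 4) and a CK mean of 0.519 ± 0.137 (SD, n = 5), a log2 fold change of 0.78 (SE 0.35, edgeR adjusted p = 0.132).

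The genotypes were compared with each other at the same peaks. The C, K and CK contrasts share the WT mice, so some agreement in sign between them is built in. Their values are given side by side. All 18 members gained in CK lay above 0 in K and 13 did in C. All 7 lost in CK lay below 0 in K and 5 did in C. Tested directly, no member differed between CK and K by edgeR (15 at an unadjusted p under 0.05, 11 of them higher in CK, and none by DESeq2), where 0.00458% of all peaks were gained and as many lost. CK differed from C at 9 members, 7 higher and 2 lower, where 0.907% of all peaks were higher and 0.770% lower, and 2.30% and 0.435% of promoter peaks. Among these were Kcnk3 (log2 difference 1.23, SE 0.21, edgeR adjusted p = 0.00155), Grin2d (0.58, SE 0.10, edgeR adjusted p = 0.00177) and Kcnj4 (0.77, SE 0.15, edgeR adjusted p = 0.00318). Lower in CK were Scn11a (-0.63, SE 0.097, edgeR adjusted p = 0.000752) and Grm6 (-0.23, SE 0.049, edgeR adjusted p = 0.0058). Without C mouse 4 the count was 1, without C mouse 1, 2 or 3 or CK mouse 1, 2 or 4 it was 3 to 5, and with G+C bins it was 4. K differed from C at Scn11a alone (-0.67, SE 0.10, edgeR adjusted p = 0.00088), where 0.505% of all peaks were lower and 0.283% higher in K, and without C mouse 3, K mouse 3 or CK mouse 1 or 3 the count was 2. Against the C and K changes added together, CK differed at no member by edgeR or DESeq2, with 7 at an unadjusted p under 0.05. Over all peaks, 0.00611% lay above the sum and 0.00458% below. At Kcnk3, the departure was 0.90 (SE 0.31, edgeR adjusted p = 1.00).

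**Figure D5:**
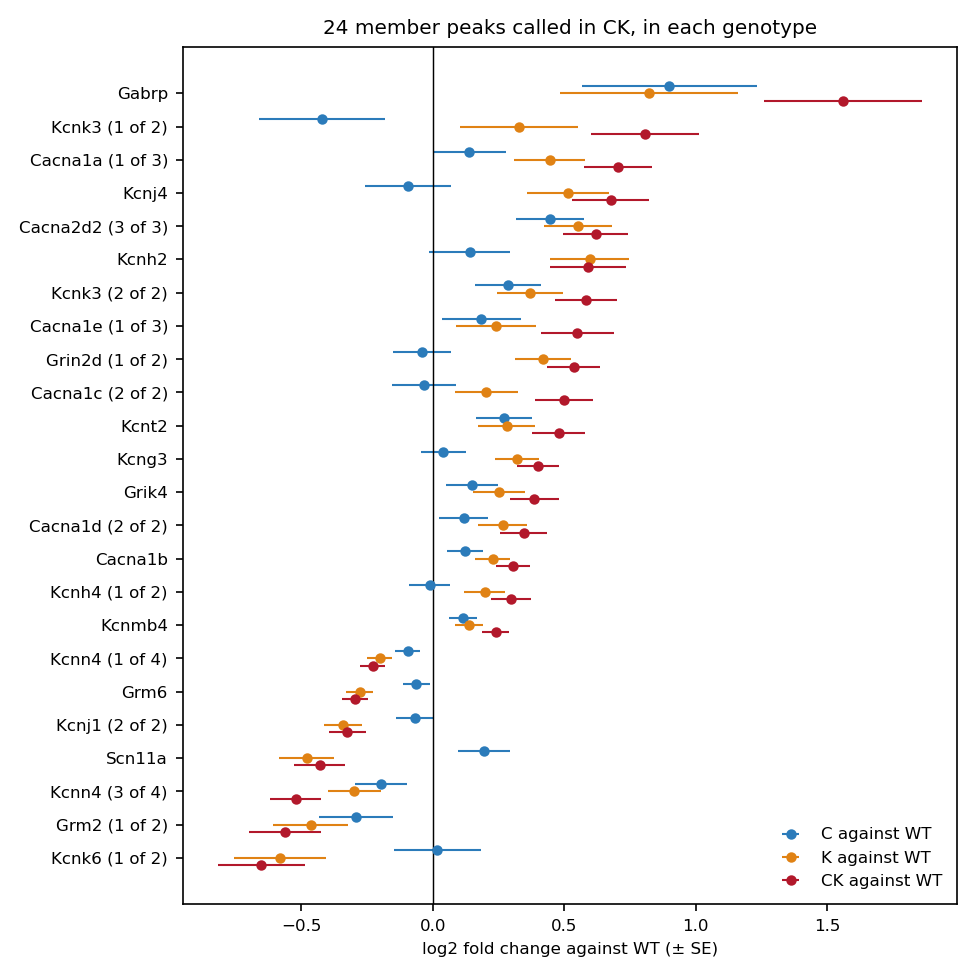
Log2 fold change against WT (x axis) with its standard error in C, K and CK for member peaks called in CK (y axis), where brackets give which peak of the gene is shown, in order of position. The gained peaks shown lie above 0 in K as well, and Scn11a is at 0.19 in C and -0.43 in CK.

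Peaks inside the same genes but over 2.5 kb from every protein-coding TSS were examined too. Of these 240, 8 were gained and 12 lost in CK (3.33% and 5.00%), where 3.54% of all peaks were gained and 3.30% lost, none was called in C, and the median log2 fold change in CK was 0.01. Of the 136 promoter peaks the gained share was 13.2%, as given above. With G+C bins, 7 were gained and 12 lost. Of the gained peaks, that with the lowest p lies in Kcnk12, which encodes a K2P channel, and rose from 11.3 ± 2.66 CPM (SD, n = 4) to 24.6 ± 3.95 (SD, n = 5) (log2 fold change 1.12, SE 0.16, edgeR adjusted p = 6.02e-05). This peak was named after its values were seen.

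A list of other channel, receptor and related genes outside the symbol rule had promoter peaks at 35 of 56 genes. Among those with a peak were nicotinic and P2X receptor genes and Cacnb, Hcn, Asic, Trpc, Orai and Stim genes. Of their 52 peaks, 3 were gained (P2rx2, an ATP-gated channel, among them) and 1 was lost (nearest to Chrna9) in CK (5.77% and 1.92%, against 7.29% and 1.93% of all promoter peaks), with a median log2 fold change of 0.12. The P2rx2 peak rose from 5.07 ± 0.399 CPM (SD, n = 4) to 7.95 ± 0.696 (SD, n = 5), a log2 fold change of 0.65 (SE 0.098, edgeR adjusted p = 0.000108). The REST corepressor genes had peaks at all 13 genes. Of their 29 peaks, none was gained and 1 was lost in CK (3.45%, against the same 1.93%). It was a peak near an Hdac1 TSS (chr4:129525062-129526166). It fell from 46.1 ± 1.58 to 38.9 ± 2.08 CPM (log2 fold change -0.24, SE 0.049, edgeR adjusted p = 0.00154). The other Hdac1 peaks were not called, with log2 fold changes of 0.09 (chr4:129513106-129515189) and -0.04 (chr4:129541785-129543249) (edgeR adjusted p = 0.274 and 0.664). The Rest promoter had a WT mean of 46.4 ± 5.04 CPM (SD, n = 4), a K mean of 56.7 and a CK mean of 57.0 ± 5.74 (SD, n = 5), with a log2 fold change of 0.30 in CK (SE 0.078, edgeR adjusted p = 0.0108), and 0.10 with G+C bins (edgeR adjusted p = 0.191).

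Summed over the 136 peaks, each mutant genotype overlapped WT, and all C mice lay below all K and CK mice. The WT sum was 2126 ± 59.5 CPM and the C sum 2102 ± 29.5 (SD, n = 4 each). The K sum was 2193 ± 62.2 (SD, n = 4) and the CK sum 2194 ± 54.7 (SD, n = 5). The members held 0.360% ± 0.00316 of the fragments in autosomal protein-coding promoter peaks in WT and 0.362% ± 0.00119 in CK, which overlapped.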

How the data were processed

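Fragments were counted in consensus peaks for 17 libraries. Per the labels and methods of the study, the reads were aligned to mm10 and consensus peaks were called over all libraries with the nf-core ATAC-seq pipeline. The authors deposited raw counts per peak from featureCounts 2.0.1 (at least 0.2 of a fragment inside the peak), without normalization. No count column was left out (0). The 7 CB and CC libraries have no column in this table and were not analysed here.

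TSSs came from GENCODE M21 and sequence from GRCm38.p6 (NCBI). Counts were scaled by TMM and all libraries fitted with 1 coefficient per genotype in edgeR 4.0.16 (R 4.3.3), with its quasi-likelihood test, and p-values were adjusted over 65483 peaks (Benjamini-Hochberg) with a threshold of 0.01. A minimum of 10 counts over all libraries removed 0 peaks. Gained and lost mean past this threshold. SEs were derived from the F statistic. p-values measure the spread between mice. In simulated counts, 66 of 200 peaks changed 1.5-fold and 143 of 200 changed 2-fold were called for CK against WT, with 1 and 4 false calls among 65483 peaks.

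Alternatives were DESeq2 1.42.0, DESeq2 size factors, total counts, loess offsets, 20 G+C bins, filters on low counts, other thresholds, windows and samples, a replicate block, a covariate for Y signal, and leaving out each mouse. The members and lists were chosen with earlier results of these data known. Peaks named were, at most, the 6 gained and 6 lost with the lowest p in each contrast with WT, 3 per direction in other contrasts, the 8 highest WT levels per kb, the lowest CK p of each family, and Kcna3 and Kcnn4. Other peaks are named as the members of a count or for the RE1 core. Sequences were taken for gained and lost peaks with the lowest p. Some peaks that these rules name are not reported here.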

Additional observations from a re-analysis of the deposited data

Results flagged for a closer look

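In 104 groups of 4 or 5 mice tested for a single distant value by Dixon's criterion, 6 held one, where chance gives about 1 in 20 groups. K mouse 1 was high at the Cacna1a peak gained in CK (6.368 CPM, others 4.92 to 5.154). C mouse 2 was high at the Grik4 promoter (15.83 CPM, others 13.85 to 14.06), and C mouse 3 at Kcnj4 (2.831 CPM, others 1.752 to 1.895). WT mouse 1 was high at the upstream Kcnab3 peak (58.43 CPM, others 52.82 to 53.66), and WT mouse 4 at the Kcnc1 peak (21.76 CPM, others 20.06 to 20.16). The sum over the member peaks was low in C mouse 3 (2058 CPM, others 2113 to 2120).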

How the results depend on the processing

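No direction of a named called peak reversed under any alternative run, all of which reuse the libraries on which the peaks were called. For K against WT, the gained and lost counts (1 and 3) were 5 and 5 by DESeq2, 6 and 7 with a replicate block, and 12 and 7 at an adjusted p of 0.05. The gained count was 0 with the Y signal covariate and 2 with a TSS window of 5 kb, and the lost count was 1 with G+C bins and 0 with a fold above 1.5 or within the libraries with Y gene start fragments. Within those without, both were 0. For CK (18 and 7), the counts were 8 gained with G+C bins, 0 and 2 with the Y signal covariate, 28 gained at 0.05, 7 and 1 above 1.5-fold, 4 lost with only the genotypes compared, 0 and 1 within libraries with Y gene start fragments, and 7 and 0 within those without. CK against C (9) gave 4 with G+C bins, 17 at 0.05, 3 above 1.5-fold, and 1 and 0 within libraries with and without Y gene start fragments. K against C (1) gave 5 by DESeq2 and with the replicate block, 2 with loess offsets, G+C bins, the Y indicator or only the genotypes compared, 3 at 5 kb, 11 at 0.05, and 0 with the Y covariate or without Y gene start fragments. The other channel list (4) gave 2 with the Y covariate, 12 at 0.05, and 1 and 2 within libraries with and without Y gene start fragments. The REST list (1) gave 3 by DESeq2, total counts, loess or the Y indicator, 2 with G+C bins or a filter on mean CPM, 7 with the block or at 0.05, and 0 with the Y covariate, above 1.5-fold, or within either set. The gene body peaks (20) gave 3 with the Y covariate, 36 at 0.05, 12 above 1.5-fold, and 5 and 6 within the sets. The median log2 fold change moved with G+C bins alone, to 0.05 in K, 0.06 in CK and 0.01 in CK against C, and from 0.07 to 0.005 in K against C.

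Leaving out each mouse gave 0 to 3 gained and 0 to 3 lost in K, 9 to 17 gained and 3 to 7 lost in CK, 1 to 11 for CK against C, 1 to 2 for K against C, 1 to 4 in the REST list and 13 to 21 gene body peaks. Not every same-numbered pair had a correlation over 0.1, so the numbers were not taken to pair the mice: 13 of 24 did (median 0.103), against 15 of 84 other pairs (median -0.0236), and 7 of 16 libraries correlated best with their own number. The CK counts with the block were 21 and 7. Over all peaks, the block gave 3167 gained and 3440 lost in CK, against 2320 and 2158 without it. In K it gave 974 and 1172, against 424 and 542. Whether same-numbered mice shared a batch was not tested. The Y indicator, the split by Y gene start fragments and the TSSs of protein-coding transcripts were chosen after seeing the data. At this depth and 4 or 5 mice, 66 of 200 simulated 1.5-fold changes between CK and WT were called, so smaller changes can be missed. The simulated counts held 200 changed peaks, where 2320 were called gained and 2158 lost in the data. The adjustment is stricter with fewer changes, so the share called does not carry over to the data.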

Other observations

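Promoter levels of other cell types are given as sums over each marker list, lowest to highest mouse. All 5 naive or memory B cell markers had a peak, with 98.3 to 102.7 CPM per kb in WT and 92.7 to 103.5 in CK. All 4 plasma cell markers had one, with 95.9 to 103.4 in WT and 101.6 to 105.9 in CK. The 3 of 5 myeloid markers with a peak summed to 12.8 to 14.2 in WT and 10.2 to 14.6 in CK, with none at Lyz2 and Itgam, and the 4 erythroid markers to 54.5 to 57.8 and 51.3 to 56.1. Among the erythroid markers, 2 Hbb-bt peaks were called in CK, where the mean was 4.74 CPM per kb against 10.1 in WT. The Hbb-bt mean was 4.62 in C, where 1 peak was called, and 6.73 in K, where none was.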
